A study of Mus musculus with 11 samples.

Results

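Excitatory nuclei that carried both Nr4a2 and Ntng2 were gathered from single-nucleus RNA-seq of the cortex of 11 mice. Nr4a2 (Nurr1) is a nuclear receptor and an immediate early gene, and it marks the claustrum and layer 6b. Ntng2 (netrin-G2) is a membrane-anchored netrin that acts at synapses. A member was a nucleus with at least 2 UMIs of the vesicular glutamate transporter gene Slc17a7, at most 1 UMI of Gad1 and Gad2 together, and at least 2 UMIs each of Nr4a2 and Ntng2, where a UMI is a molecular tag that stands for 1 captured RNA molecule. This rule gave 794 members among 20466 excitatory nuclei (3.88%), out of 112539 nuclei that passed the filters. The members were chosen by the counts of these 5 genes, so their levels are given only as a description.

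The labels give all mice as female, while the study's methods speak of males for RNA-seq, and the labels were followed here. Each mouse gave 1 library of nuclei, sorted by DAPI from frozen cortex. There were 4 mice without the tau transgene (Ikbkb+/+). The transgene was carried by 3 mice with unaltered Ikbkb (Ikbkb+/+;P301S+), by 2 in which it was deleted (Ikbkb-/-;P301S+) and by 2 with the active kinase (IkbkbCA;P301S+), and the ages ran from 8.39 to 10.85 months. P301S+ mice carry the PS19 transgene, human tau with the P301S mutation under the mouse prion promoter. In the Ikbkb-/- mice, IKKβ, the kinase that activates NF-κB, was deleted by a tamoxifen-inducible Cre under Cx3cr1, which acts in microglia, and the IkbkbCA mice expressed a constitutively active IKKβ through the same Cre. Both groups called Ikbkb+/+ were littermates without Cre that kept the floxed alleles and also received tamoxifen. By breeding, 6 mice came from the line with floxed Ikbkb and 5 from the line with active IKKβ. The floxed line gave replicates 1 and 2 of Ikbkb+/+, replicates 1 and 2 of Ikbkb+/+;P301S+ and both Ikbkb-/-;P301S+ mice, and the other line gave the rest. Both mice of each IKKβ group were thus of 1 line, while the Ikbkb+/+;P301S+ mice they are compared with were of both. The Ikbkb+/+ mice were 10.03, 10.03, 10.85 and 9.8 months old, and the Ikbkb+/+;P301S+ mice 9.15, 10.03 and 10.75. The Ikbkb-/-;P301S+ mice were 8.39 and 9.15 months old, and the IkbkbCA;P301S+ mice 10.85 and 9.8. Age was thus not balanced between the groups compared. The Cre was not directed at neurons. The labels give 1 mouse to each library, and nuclei of 1 mouse are not replicates.

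The claustrum is a thin sheet of neurons between the insular cortex and the striatum that exchanges axons with much of the cortex. Its projection neurons are glutamatergic and are known for Nr4a2, the G protein subunit genes Gnb4 and Gng2, the synaptic vesicle gene Synpr, the latexin gene Lxn and the kappa opioid receptor gene Oprk1. Neurons with a related profile lie in layer 6 of the lateral cortex, where carbonic anhydrase Car3 marks them, and in the endopiriform nucleus. Nr4a2 is also found in the subplate-derived neurons of layer 6b, together with Ctgf, Cplx3 and Nxph4.

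The markers held the label for most, but not all, of the members. Of 14 claustrum-like markers, 13 were found in the files, and the 11 of them that the rule had not used were all higher in the members than in the other excitatory nuclei. Levels are CPM, the UMIs of a gene scaled to a common total, of the UMIs summed over the nuclei of a mouse, or pooled over all mice where so stated. Gnb4 had 217, 338 and 452 CPM in the lowest, median and highest of the 11 mice in members, and 9.56, 14.0 and 20.8 CPM in other excitatory nuclei. Col11a1, a fibrillar collagen gene, had 257, 325 and 505 CPM in members and 12.6, 15 and 20.2 CPM in the others. Oprk1 had 63.0, 132 and 213 CPM in members against 2.48, 4.70 and 7.16 CPM. No member sum overlapped with any other excitatory sum for these 3 genes.

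Smoc2, a gene of a calcium-binding matrix protein, had 123, 175 and 303 CPM in members and 26.2, 30.8 and 54.1 CPM in other excitatory nuclei. Synpr had 389, 654 and 797 CPM against 56.5, 72.0 and 96.7 CPM, and Gng2 had 315, 499 and 615 CPM against 101, 124 and 152 CPM. Car3 was sparse in members, at 6.27, 12.4 and 25.5 CPM, and almost undetected in the others, at 0, 0.140 and 0.721 CPM. Summed over the 11 markers that the rule had not used, the level was 1625 to 3213 CPM in the members of a mouse and 266 to 362 CPM in its other excitatory nuclei.

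Single nuclei showed that the members were not uniform. At least 3 of the 5 genes Gnb4, Oprk1, Synpr, Col11a1 and Smoc2 had a UMI in 69.4% of members and in 6.17% of other excitatory nuclei matched to them in depth. All 5 had a UMI in 43.3% of members and in 0.378% of the matched nuclei. At the other end, 10.1% of members had a UMI of none (0) of the 5.

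The gate was rarely passed outside excitatory nuclei. Both Nr4a2 and Ntng2 reached 2 UMIs in 0.102% of inhibitory nuclei (21 of 20590, 95% Wilson interval 0.0667 to 0.156%) and in 0.0464% of oligodendrocyte nuclei (7 of 15091), against 3.88% of excitatory nuclei (3.62 to 4.15%). The median UMIs per nucleus were 9156 and 2493 in those nuclei and 12666 in excitatory nuclei. These intervals cover counting error only. Ntng2 was common, since 32.2% of excitatory nuclei passed its limit alone, and Nr4a2 set most of the selection, with 6.85% passing. Among excitatory nuclei with at least 2 UMIs of Nr4a2, 56.7% also had at least 2 of Ntng2, and among those below the Nr4a2 limit 30.4% did.

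Each of the gates alone led to other neurons. The 607 excitatory nuclei with Nr4a2 but not Ntng2 had pooled levels of 37.3 CPM of Ctgf, 7.57 CPM of Cplx3 and 3275 CPM of Hs3st4, a sulfotransferase gene of deep layers, with 11 CPM of Gnb4 and 16.6 CPM of Col11a1. The 5789 nuclei with Ntng2 but not Nr4a2 had 22.3 CPM of Gnb4, 18.4 CPM of Col11a1 and 0.564 CPM of Ctgf. In members the pooled levels were 331 CPM of Gnb4, 345 CPM of Col11a1 and 1.95 CPM of Ctgf, and 771 of the 794 had no (0) UMI of Ctgf, Cplx3 or Nxph4. The high levels of Gnb4 and Col11a1 were found where both genes were present.

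The limits were not sharp. Gnb4 was at 150.5 CPM in the 206 members with exactly 2 UMIs of Nr4a2 and at 62.7 CPM in the 505 nuclei just outside, with 1 UMI of Nr4a2 and Ntng2 past its limit. On the Ntng2 side, it was at 25.0 CPM in the 53 members with exactly 2 UMIs of Ntng2 and at 17.6 CPM in the 85 nuclei with 1 UMI. In the 334 members with 5 or more UMIs of Nr4a2 it was at 449 CPM.

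**Figure D1:**
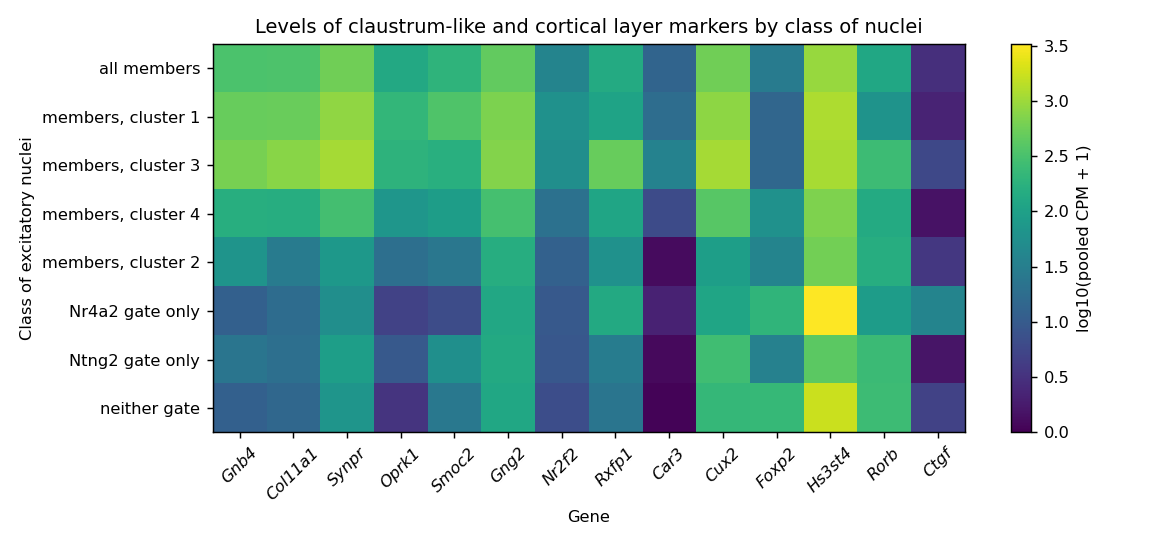
Pooled levels, as log10(CPM + 1) in colour, of 14 marker genes (columns) in all members, in the 4 sub-clusters of the members, and in excitatory nuclei that passed only the Nr4a2 gate, only the Ntng2 gate or neither. Gnb4, Col11a1, Synpr and Oprk1 are bright in clusters 1 and 3 and dim in cluster 2, while Ctgf is brightest in the nuclei with the Nr4a2 gate only.

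The members fell into 4 sub-clusters when the 5 genes of the rule were left out of the clustering, and the claustrum-like genes were concentrated in clusters 1 and 3. These clusters are a description and were not tested, and cluster numbers carry no order. They were cut at a resolution of 0.3, while 0.1, 0.5 and 1 gave 2, 5 and 9 clusters. Their number and sizes therefore depend on that setting. Cluster 1 held 371 nuclei (46.7%), with 501 CPM of Gnb4, 519 CPM of Col11a1, 213 CPM of Oprk1 and 356 CPM of Smoc2. It was led against the rest of the members by the transcription factor genes Tfap2d and Tcf7l1, by Sfmbt2 and Smoc2, and by Gfra1, a receptor for glial cell line-derived neurotrophic factor. The serotonin receptor gene Htr2c was also among its leading 10 genes. Cluster 3 held 117 nuclei (14.7%), with 616 CPM of Gnb4, 765 CPM of Col11a1 and 185 CPM of Oprk1, and its leading genes included Ltbp1, Tspan11 and the relaxin receptor gene Rxfp1.

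The 2 clusters differed in several of the markers. Rxfp1 was at 497 CPM in cluster 3 and 109 CPM in cluster 1, Car3 at 35.6 and 17.0 CPM, and the collagen gene Col24a1 at 647 and 245 CPM. Smoc2 went the other way, with 165 CPM in cluster 3. Rorb, a gene of layer 4 and 5 neurons, was at 253 CPM in cluster 3 and 63.7 CPM in cluster 1, and Slc17a6, another vesicular glutamate transporter gene, was at 59.8 and 25.2 CPM. The NMDA receptor subunit gene Grin3a was at 305 CPM in cluster 1 and 55.1 CPM in cluster 3. Together these clusters made up 488 members (61.5%). Levels by cluster are pooled over mice, whose shares of cluster 3 differed widely. Differences between mice and between clusters are therefore not told apart here.

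Cluster 2 went against the label. Its 196 nuclei (24.7%) had 64.6 CPM of Gnb4, 28.01 CPM of Col11a1, 18.1 CPM of Oprk1 and 0.267 CPM of Car3, and 20.4% of them had a UMI of Col11a1 against 97.3% in cluster 1. They were led by Npsr1, the neuropeptide S receptor gene, by the sulfotransferase genes Chst9 and Ndst4, by Col23a1, and by Reln, the gene of the secreted glycoprotein reelin. Their median was 3 UMIs of Nr4a2 and 6 of Ntng2, where cluster 1 had 5 and 24. Cluster 2 was left without a cell type name. Cluster 4 held 110 nuclei (13.9%) with intermediate levels, 158 CPM of Gnb4 and 156 CPM of Col11a1, and was led by Syndig1, Igfn1 and Enpp2. It is also left unnamed. A doublet caller marked 31.8% of cluster 4 and 29.6% of cluster 2, against 11.9% of cluster 1 and 7.69% of cluster 3. Over all members it marked 18.4%, and over the depth-matched other excitatory nuclei 17.3%. The median UMIs per nucleus were 14143, 17252, 12677 and 16764.5 in clusters 1, 2, 3 and 4.

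Mice differed in the make-up of their members. Clusters 1 and 3 together made up 45.5 to 74.7% of the members of a mouse, and cluster 3 alone 1.55 to 36.8%, both extremes of cluster 3 being the IkbkbCA;P301S+ mice. Among the Ikbkb+/+;P301S+ mice cluster 3 held 5.13%, 4.76% and 25.5% of the members of replicates 1, 2 and 3. Cluster 2 held 34.1% and 36.4% in the Ikbkb-/-;P301S+ mice, the highest values of any mouse, and 9.47 to 32.6% in the other 9. Cluster 2 had the deepest nuclei of the clusters, and the Ikbkb-/-;P301S+ mice the deepest members, with medians of 17209 and 18235 UMIs. The part of depth in these shares was not tested. How much of the claustrum each cortex sample held is not given in the sources used here.

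**Figure D2:**
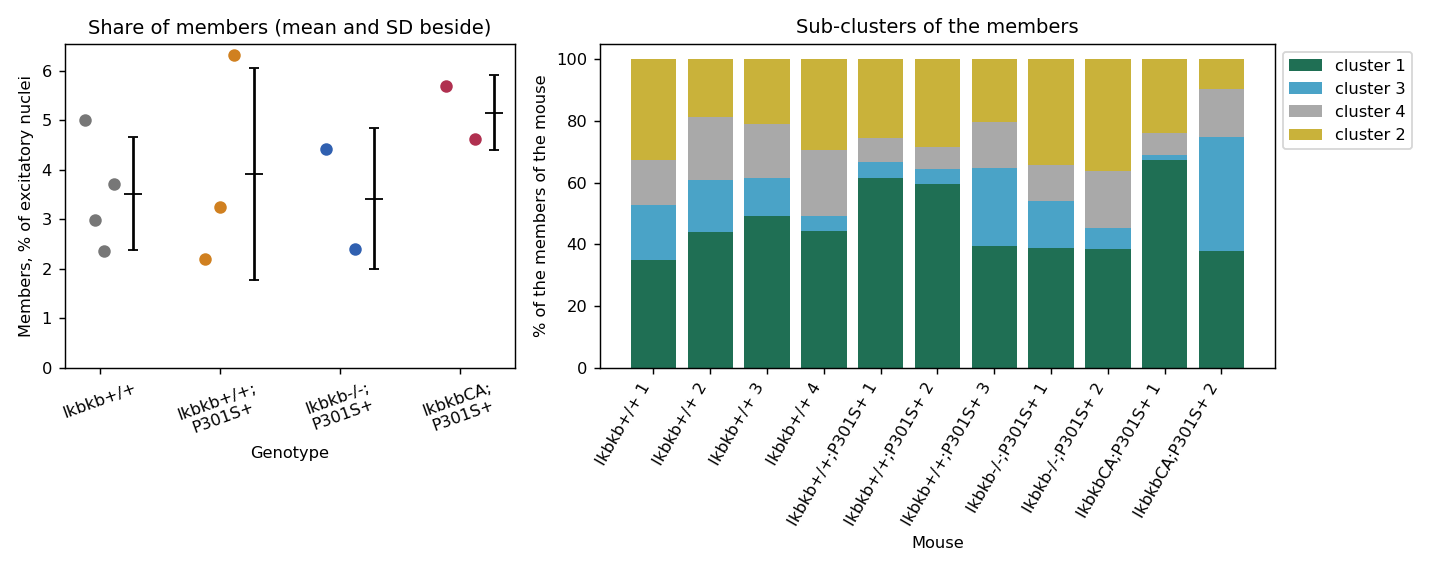
Left, members as a percentage of the excitatory nuclei of each mouse, 1 point a mouse, with the mean and SD of each genotype beside the points. Right, the percentage of each mouse's members in the 4 sub-clusters, where cluster 3 runs from 1.55% to 36.8% within the IkbkbCA;P301S+ group.

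The share of members did not differ between genotypes beyond the spread between mice. Members made up 5.01%, 2.98%, 2.36% and 3.71% of excitatory nuclei in the 4 Ikbkb+/+ mice, and 2.18%, 3.24% and 6.31% in the Ikbkb+/+;P301S+ mice. The Ikbkb-/-;P301S+ mice had 4.42% and 2.40%, and the IkbkbCA;P301S+ mice 5.68% and 4.62%. The ranges of the groups overlapped in each contrast. The means were 3.52% ± 1.14 (SD, n = 4), 3.91% ± 2.14 (n = 3), 3.41% ± 1.43 (n = 2) and 5.15% ± 0.749 (n = 2).

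The P301S contrast (Ikbkb+/+;P301S+ minus Ikbkb+/+) was 0.395 percentage points (exact permutation test, two-sided, p = 0.743), and the knockout contrast (Ikbkb-/-;P301S+ minus Ikbkb+/+;P301S+) was -0.498 points (exact p = 0.9). The active IKKβ contrast (IkbkbCA;P301S+ minus Ikbkb+/+;P301S+) was 1.24 points (exact p = 0.5), and the all-tau contrast (the 7 P301S+ mice minus the 4 Ikbkb+/+ mice) was 0.607 points (exact p = 0.512). All 4 adjusted p-values were 0.9. In the tests of genes, the all-tau contrast was instead the mean of the 3 P301S+ genotypes, each weighted equally, minus Ikbkb+/+. The contrasts of 2 against 3 mice cannot give a p below 0.1. With each nucleus thinned to 5000 UMIs the differences were -0.00715, -0.785, 0.817 and 0.00184 points in the same order. The knockout difference was 0.186 points as a share of all nuclei, and positive without Ikbkb+/+;P301S+ replicate 3 (0.701) or Ikbkb-/-;P301S+ replicate 2 (0.510). The members of the Ikbkb-/-;P301S+ mice were deeper, with median UMIs of 17722 ± 725 (n = 2) against 13244 ± 568 (n = 3) in the Ikbkb+/+;P301S+ mice (exact permutation p = 0.1, the smallest possible).

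Beyond the markers, the members stood far apart from the other excitatory nuclei of the same mice. With edgeR's quasi-likelihood test on sums per mouse, 3369 of 13328 genes (25.3%) passed an adjusted p of 0.05 with an absolute log2 fold change over 0.1, of which 1635 were higher and 1734 lower in members. Against other excitatory nuclei matched in depth, 2031 of 7868 genes passed (25.8%), and 1903 genes passed both in the same direction. The comparison pools all layers of the other excitatory neurons, and the rule's own 5 genes were left out.

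**Figure D3:**
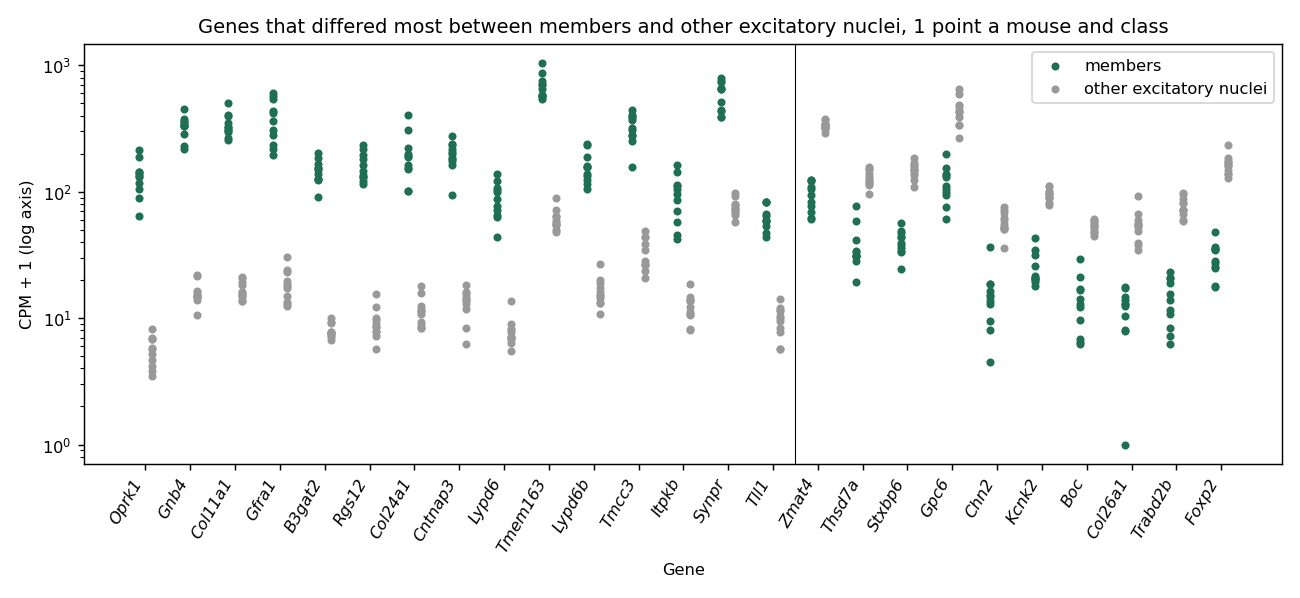
CPM + 1 on a log axis of the 15 genes with the largest positive and the 10 with the most negative log2 fold change among called genes with a mean of at least 50 CPM in the higher kind of nuclei (left and right of the line), 1 point for each mouse in members (green) and in other excitatory nuclei (grey). For the 15 higher genes the lowest member sum lies above the highest sum of other excitatory nuclei.

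Among called genes with a mean of at least 50 CPM in members, clone-type names left out, the 15 with the highest fold change were led by Oprk1 at a log2 fold change of 4.83 ± 0.15 (SE), Gnb4 at 4.47 ± 0.10, Col11a1 at 4.43 ± 0.08 and Gfra1 at 4.38 ± 0.10. B3gat2, a glucuronyltransferase gene, followed at 4.35 ± 0.10, with 90.6, 148 and 201 CPM in the lowest, median and highest mouse of the members and 5.72, 6.61 and 9.07 CPM in the others. Rgs12, a regulator of G protein signalling, was at 4.28 ± 0.12, Col24a1 at 4.21 ± 0.13 and Cntnap3, a neurexin-family adhesion gene, at 4.02 ± 0.12. Lypd6 and its neighbour Lypd6b, both modulators of nicotinic receptors, were at 3.69 ± 0.12 and 3.35 ± 0.12. Tmem163, a zinc transporter gene, Tmcc3, Itpkb, an inositol trisphosphate kinase gene, Synpr and the metalloprotease gene Tll1 completed the list, between 3.51 and 2.88. All 15 were higher in members in 11 of 11 mice. Sparser genes were left out by that limit, among them Car3 at 6.21 ± 0.38 and Lxn at 3.07 ± 0.21.

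Of the same genes, the pooled levels in cluster 2 were near those of other excitatory nuclei or a few times above them. Gfra1 was at 65.1 CPM in cluster 2, 699 CPM in cluster 1 and 17.6 CPM in other excitatory nuclei. Tmem163 was at 92.8, 1120 and 59.1 CPM, and Col24a1 at 17.9, 245 and 10.4 CPM.

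Among called genes with a mean of at least 50 CPM in other excitatory nuclei, the 10 with the lowest fold change were led by Foxp2, a transcription factor of layer 6 corticothalamic neurons, at a log2 fold change of -2.50 ± 0.09. Foxp2 had 16.5, 27.5 and 47.3 CPM in the lowest, median and highest mouse of the members and 127, 163 and 234 CPM in the others. Trabd2b, a Wnt protease gene, was at -2.44 ± 0.12, Col26a1 at -2.20 ± 0.13, and Boc, a Hedgehog co-receptor gene, at -2.04 ± 0.15. Kcnk2 (TREK-1), a background potassium channel, was at -1.98 ± 0.09. Chn2, Gpc6, a glypican gene, Stxbp6, Thsd7a and Zmat4 lay between -1.94 and -1.83. All 10 were lower in members in 11 of 11 mice. Sparser genes such as Syt6, at -2.55 ± 0.16, were left out by the limit. These 25 genes lie on mouse chromosomes as annotated in GENCODE M21 (GRCm38). Oprk1, for example, spans chr1:5588466-5606131, Gnb4 chr3:32580332-32616585, Col11a1 chr3:114030540-114220718 and Foxp2 chr6:14901349-15441977, all protein coding.

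Lists of layer markers were mostly lower in the members. Over all genes tested 12.3% were higher and 13% lower, which is the background for the counts of every list. All 5 tested genes of the layer 6 corticothalamic list were lower (median log2 fold change -1.38), as were 2 of 3 of the layer 4/5 list and 3 of 5 of the layer 5 extratelencephalic list. Of 4 layer 6b genes, 3 were lower and Lpar1 was higher, and of 3 near-projecting genes 2 were lower and Vwc2l was higher. The pooled sum of the 6 layer 6b genes was 467 CPM in cluster 2, of which Inpp4b made 428 CPM. It was 43.7 to 103 CPM in the other clusters and 247 CPM in other excitatory nuclei. The layer 2/3 list had 4 lower genes and 1 higher, Cux2, with 405, 505 and 897 CPM in the lowest, median and highest mouse of the members and 168, 209 and 284 CPM in the others. Of the excitatory genes, Slc17a6 was higher and Camk2a lower. Over all genes tested the median was -0.0067.

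Markers of other cells moved in both directions. All 6 oligodendrocyte genes were lower, as were 2 of 5 astrocyte genes and 1 of 5 microglial genes, and neither of 2 vascular genes passed. The sum of the 6 microglial genes was 22.3 to 46.0 CPM in the members of a mouse and 28.7 to 57.4 CPM in its other excitatory nuclei, and the sum of the 6 vascular genes was 1.10 to 12.5 CPM against 3.46 to 11.1 CPM. The inhibitory list had 1 higher gene, Adarb2, and 1 lower among the 2 tested, and its sum was 159 to 392 CPM in members and 89.2 to 172 CPM in others. Of 5 striatal genes, Drd1, Drd2 and Rgs9 were higher and Ppp1r1b lower, with pooled levels of Drd1 of 15.1 CPM in members and 3.77 CPM in others. Of 3 precursor genes Vcan and Lhfpl3 were higher, and the sum of the 4 on the list was 347 to 745 CPM in members and 193 to 295 CPM in others, without overlap. The astrocyte sum was 300 to 590 CPM in members against 531 to 650 CPM. The part of RNA from other cells in these differences was not tested.

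Activity-induced genes were higher in the members. Of 24 genes on this list, 21 were tested and 17 passed as higher, with none (0) lower, beside 12.3% and 13% of all genes, and the median log2 fold change was 0.89. Nr4a2 belongs to this class of genes and chose the members. Bdnf, the gene of brain-derived neurotrophic factor, had 55.8, 97.7 and 140 CPM in the lowest, median and highest mouse of the members and 19.7, 29.8 and 37.4 CPM in the others (log2 fold change 1.78 ± 0.08). Nr4a3, a paralogue of Nr4a2, had 27.6, 60.8 and 140 CPM against 13.7, 23.1 and 39.8 CPM (1.60 ± 0.11). Fosl2, Fosb, Egr4, Fos and Sik1 were between 1.79 and 1.03, and Arc was at 0.43 ± 0.14. Nr4a1, at 75.0 CPM in members and 75.2 CPM in others in the median mouse, Egr1, Jun and Vgf did not pass. Against depth-matched nuclei 10 of 14 tested genes passed as higher and none (0) as lower.

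The activity-induced genes did not follow the claustrum-like genes across classes of nuclei. In nuclei with the Nr4a2 gate only, where Gnb4 and Col11a1 were low, 23 of the 24 had a higher pooled level than in nuclei with neither gate, and in nuclei with the Ntng2 gate only 7 of 24 did. In clusters 2 and 4 together 24 of 24 were higher and in clusters 1 and 3 together 18 of 24. Nr4a3 was at 66.0 CPM in clusters 1 and 3, 101 CPM in clusters 2 and 4, 70.1 CPM with the Nr4a2 gate only and 21.7 CPM with neither. Bdnf was at 111, 92.2, 32.6 and 22.8 CPM in the same order, and so was high in both kinds of members and not with Nr4a2 alone. These levels are pooled over mice and were not tested. The share of all genes above the nuclei with neither gate was not counted, so these counts have no background. The classes were also cut on Nr4a2, which is itself activity-induced.

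Receptors for neuropeptides and neuromodulators were changed in both directions. Of 36 tested genes on this list, 15 were higher and 7 lower, beside 12.3% and 13% of all genes, with a median of 0.33. After Oprk1, the somatostatin receptor gene Sstr2 was at a log2 fold change of 2.68 ± 0.14, with 23, 34.3 and 70.6 CPM in the lowest, median and highest mouse of the members and 5.05, 5.95 and 9.09 CPM in the others. Rxfp1 was at 2.24 ± 0.23 and the dopamine receptor gene Drd1 at 1.96 ± 0.17. Rxfp1 varied widely between mice. The members of Ikbkb+/+ replicate 2 had 364 UMIs of it, and the larger sum of IkbkbCA;P301S+ replicate 1 had 54. These 2 mice were of different breeding lines. The mice of the floxed line had 318, 364, 93, 79, 381 and 196 UMIs of Rxfp1. Those of the line with active IKKβ had 45, 40, 50, 54 and 186. The 79 came from a sum of 592604 UMIs and the 186 from one of 1587461. The part of the line in this was not tested. The serotonin receptor gene Htr2a was at 1.55 ± 0.09, with 93.9, 134 and 168 CPM against 33.7, 42.7 and 74.0 CPM. The muscarinic receptor genes Chrm2 and Chrm3 were higher by 1.16 ± 0.05 and 0.81 ± 0.04, while Chrm1 was at -0.04 ± 0.07 and did not pass. Among the lower genes were the orexin receptor gene Hcrtr2 at -1.98 ± 0.27, Htr7 at -1.32 ± 0.19, Crhr1 at -0.999 ± 0.12 and the cholecystokinin receptor gene Cckbr at -0.87 ± 0.09. Hcrtr2 was sparse, with 39 UMIs in all members together. Of the opioid receptor genes, Oprm1 was higher at 0.53 ± 0.07 and Oprd1 did not pass at 0.15 ± 0.11.

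Glutamate receptors and scaffolds also differed by subunit. Of 24 genes, 8 were higher and 12 lower, beside 12.3% and 13% of all genes, with a median of -0.13. Grin3a, a subunit that lowers the calcium permeability of NMDA receptors, had 109, 174 and 278 CPM in the lowest, median and highest mouse of the members and 26.3, 43.0 and 51.7 CPM in the others (log2 fold change 2.23 ± 0.10). The AMPA receptor subunit gene Gria4 was at 1.26 ± 0.04, with 2012, 2343 and 3323 CPM in members against 862, 1094 and 1234 CPM, while Gria3 was at -0.45 ± 0.05 and Gria2 at -0.05 ± 0.04, which did not pass. The kainate receptor subunit gene Grik1 at -1.54 ± 0.12 and the metabotropic receptor gene Grm3 at -1.15 ± 0.06 were the lowest. The metabotropic receptor gene Grm5 was higher by 0.41 ± 0.03.

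Most voltage-gated channel genes moved, in both directions. Of 34 genes, 14 were higher and 17 lower, beside 12.3% and 13% of all genes, with a median of -0.12. The A-type channel partner Kcnip1 at 1.77 ± 0.08, the fast delayed rectifier Kcnc1 at 1.01 ± 0.05 and the T-type calcium channel Cacna1g at 0.90 ± 0.07 were the highest. Kcnh5 at -1.79 ± 0.09 and Cacna1a, the P/Q-type calcium channel, at -1.38 ± 0.10 were the lowest. Cacna1a had 287, 384 and 795 CPM in the lowest, median and highest mouse of the members and 989, 1081 and 1277 CPM in the others. In clusters 1 and 3 its pooled level was 55.5 CPM and in clusters 2 and 4 it was 871 CPM, so that most of the Cacna1a of the members came from clusters 2 and 4.

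Axon guidance genes were split as well. Of 30 genes, 11 were higher and 15 lower, beside 12.3% and 13% of all genes, with a median of -0.16. The netrin receptor genes Unc5c at 1.33 ± 0.05 and Dcc at 0.73 ± 0.06, the secreted netrin gene Ntn4 at 0.99 ± 0.17 and Slit2 at 0.79 ± 0.07 were among the higher genes. The semaphorin receptor gene Nrp1 was at -1.51 ± 0.14 and Plxnd1 at -1.42 ± 0.14. The other netrin-G gene, Ntng1, was at -0.85 ± 0.15, and its ligand gene Lrrc4c at -1.03 ± 0.07, while Lrrc4, the ligand gene of netrin-G2, was at -0.25 ± 0.07. Ntng1 varied widely between mice, from 45.1 to 401 CPM in members.

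On the lists of tau phosphorylation, NF-κB and protein stress genes 6 of 18, 2 of 15 and 5 of 14 genes passed, beside 25.3% of all genes. Of the 18 tau kinase and phosphatase genes, 2 were higher and 4 lower, from Mark1 at -0.38 ± 0.06 to Ppp2r2c at 0.20 ± 0.05, with a median of -0.0035. Mapt, the mouse tau gene, was at -0.02 ± 0.04 and did not pass. Of 15 NF-κB genes, Map3k14, the kinase of the non-canonical pathway, was higher at 1.21 ± 0.08, with 27.5, 53.3 and 85.6 CPM against 16.0, 22.8 and 31.3 CPM. Il1r1 was lower at -1.24 ± 0.24, with only 23 UMIs in all members together. Ikbkb was at -0.06 ± 0.07 and did not pass. Of 14 stress genes 5 were higher and none (0) lower, and Ddit3 led them at 1.48 ± 0.24. Against depth-matched nuclei none (0) of 8 stress genes tested passed, 1 of 8 NF-κB genes was higher, and of the 18 tau kinase and phosphatase genes 1 was higher and 4 lower.

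The promoters of the leading genes were searched for letters that Nr4a2 or activity-induced factors are known to bind. In the RefSeq promoter windows of GRCm38.p6, 250 bases before to 50 after each start, 11 of the 15 higher genes had an entry. The NBRE, AAAGGTCA, which holds the nuclear receptor core AGGTCA and was searched on both strands, was in the window of 1 of the 11, Col24a1, and in 1.51% of all 32851 windows. The cAMP response element TGACGTCA was also in 1 of the 11 and in 1.79% of all windows, and the AP-1 site TGACTCA in 2 of 11 and in 5.2% of all windows. Of the 10 lower genes 4 had an entry, of which Kcnk2 held the AP-1 site and none (0) held either of the others. The 2 collagen genes among the leaders are shown, with matches in capitals. Col24a1 lies at chr3:145292222-145292521 and Col11a1 at chr3:114030290-114030589, both on the plus strand, and Col11a1 had no match. A gene was counted if any of its windows matched, and some genes had several, while the background is per window. The 2 shares are therefore not on the same footing. A match is a description of the letters only.
Col24a1: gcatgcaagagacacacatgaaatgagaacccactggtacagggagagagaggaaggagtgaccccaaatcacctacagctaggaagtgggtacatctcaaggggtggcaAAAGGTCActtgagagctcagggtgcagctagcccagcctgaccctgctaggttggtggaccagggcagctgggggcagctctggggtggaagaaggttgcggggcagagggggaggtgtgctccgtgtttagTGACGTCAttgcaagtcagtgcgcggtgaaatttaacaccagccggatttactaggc
Col11a1: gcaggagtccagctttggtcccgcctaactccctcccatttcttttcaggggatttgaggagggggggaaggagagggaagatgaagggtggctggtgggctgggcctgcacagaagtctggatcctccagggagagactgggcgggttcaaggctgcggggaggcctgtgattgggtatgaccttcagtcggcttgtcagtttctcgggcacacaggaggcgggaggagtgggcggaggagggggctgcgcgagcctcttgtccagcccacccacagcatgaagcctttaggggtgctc

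Few genes passed a test of genotype in the members. The comparison asked whether the expression of these neurons differed with the tau transgene, and with IKKβ activity in microglia on top of it. In the P301S contrast 1 of 8995 genes passed (0.0111%), and it was Gm43049, a long intergenic RNA gene at chr3:140692038-140760704 on the minus strand. It had 0 UMIs in the members of each of the 4 Ikbkb+/+ mice. The Ikbkb+/+;P301S+ mice had 4, 9 and 24 UMIs of it, or 7.86, 15.8 and 16.9 CPM. The Ikbkb-/-;P301S+ mice had 14 and 8 UMIs, or 9.24 and 8.84 CPM, and the IkbkbCA;P301S+ mice 25 and 24 UMIs, or 12.4 and 15 CPM. Every P301S+ mouse was therefore above every Ikbkb+/+ mouse. Tau itself and other effects of carrying the transgene cannot be told apart in this design.

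The fitted log2 fold change of Gm43049 was 7.06 ± 0.84 in the P301S contrast (edgeR quasi-likelihood test, adjusted p = 0.00886) and 6.82 ± 0.77 in the all-tau contrast (adjusted p = 0.00479), where it was again the only one of 8995 genes to pass (0.0111%). These folds are against a group at 0 UMIs, depend on the prior count of the fit and are no bound. In the other excitatory nuclei the log2 fold change of Gm43049 was 7.63 in the P301S contrast (edgeR, adjusted p = 4.2e-07). The change did not pass as different between members and others (edgeR, adjusted p = 1). It was not called in the P301S contrast without Ikbkb+/+;P301S+ replicate 2 (log2 fold change 7.08, edgeR adjusted p = 0.0555), without replicate 3 (6.76, adjusted p = 0.272) or with nuclei marked as doublets left out (6.64, adjusted p = 0.068). With clusters 1 and 3 only, or with nuclei thinned to 5000 UMIs, Gm43049 fell under the filter on low counts and was not tested. It had 0 UMIs in each Ikbkb+/+ mouse in both settings, and 1 to 18 and 0 to 8 UMIs in the 7 P301S+ mice. No (0) other gene passed in the P301S or the all-tau contrast there with edgeR, with 222 and 291 genes at an unadjusted p under 0.05 in the first setting and 178 and 223 in the second.

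No (0) gene passed for either manipulation of IKKβ with edgeR and the filter on low counts, while 67 genes in the knockout and 48 in the active IKKβ contrast did without the filter, and 1 in the knockout contrast with a gate of 3 UMIs. In the knockout contrast 0 of 8995 genes passed with edgeR (0%) and 2 with DESeq2, with 498 genes (5.54%) at an unadjusted p under 0.05. In the active IKKβ contrast 0 genes passed with either tool (0%), with 467 genes (5.19%) at an unadjusted p under 0.05. The P301S and all-tau contrasts had 330 (3.67%) and 369 genes (4.1%) at that limit. Groups did not overlap for 4.77% of genes in the P301S, 21.7% in the knockout, 20.1% in the active IKKβ and 0.5% in the all-tau contrast. In the other excitatory nuclei of the same mice, 0 of 17174 genes passed in either contrast with edgeR, with 1435 (8.36%) and 976 genes (5.68%) at an unadjusted p under 0.05. In the P301S and all-tau contrasts 5 (0.0291%) and 7 of them (0.0408%) passed, with 3.26% and 5.14% at that limit. Sums of 534534 to 2005557 UMIs per mouse lay behind these tests, and their common coefficient of variation between mice was 15.2%.

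The genes that check the labels are of limited use in these nuclei. The tau transgene is human MAPT driven by the mouse Prnp promoter, and the mouse gene Mapt had 531 ± 72.9 CPM (n = 4) in Ikbkb+/+, 535 ± 86.9 (n = 3) in Ikbkb+/+;P301S+, 560 ± 0.286 (n = 2) in Ikbkb-/-;P301S+ and 627 ± 20.1 CPM (n = 2) in IkbkbCA;P301S+ members. Prnp had 4 UMIs in all members together. Ikbkb was targeted in microglia, and whether the Cre also acted in these neurons was not tested. It had 44.5 ± 4.70 CPM in Ikbkb+/+, 41.7 ± 8.77 in Ikbkb+/+;P301S+, 36.9 ± 3.79 in Ikbkb-/-;P301S+ and 52.4 ± 3.89 CPM in IkbkbCA;P301S+ members. Both IkbkbCA;P301S+ mice lay above the mice of the other genotypes. In the active IKKβ contrast, which sets these mice against the Ikbkb+/+;P301S+ mice only, 20.1% of genes did not overlap between groups. The share of genes that set them apart from all other genotypes was not counted. Neither Mapt nor Ikbkb passed in any of the 4 contrasts.

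**Figure D4:**
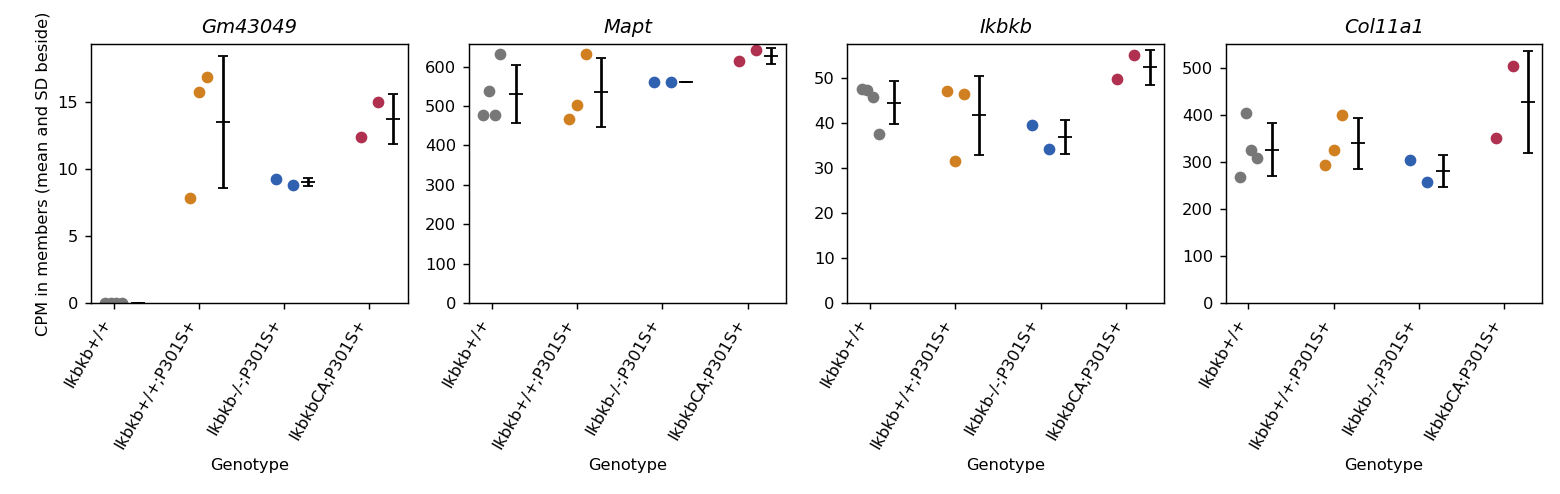
CPM in the members of each mouse, 1 point a mouse, with the mean and SD beside the points, for Gm43049, Mapt, Ikbkb and Col11a1 in the 4 genotypes. Gm43049 is at 0 in all 4 Ikbkb+/+ mice and between 7.86 and 16.9 CPM in the 7 P301S+ mice, while the other 3 genes overlap between Ikbkb+/+ and Ikbkb+/+;P301S+.

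The gene lists did not move with genotype by any called member. None (0) of the 20 activity-induced genes tested passed in any contrast, and their medians were 0.08 in the P301S, -0.53 in the knockout, -0.44 in the active IKKβ and -0.19 in the all-tau contrast, beside 0.01, -0.01, -0.02 and -0.01 for all genes tested. The knockout and active IKKβ contrasts share the same 3 Ikbkb+/+;P301S+ mice. No (0) gene of the tau kinase, glutamate receptor, channel, axon guidance, neuromodulator, NF-κB or stress lists passed in any contrast, and their medians lay between -0.24 and 0.16.

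The claustrum-like markers outside the rule were higher in members than in other excitatory nuclei in each genotype. Their sum over the 11 genes was 1625 to 3213 CPM in the members of Ikbkb+/+, 2264 to 2614 CPM in those of Ikbkb+/+;P301S+, 1706 and 2253.5 CPM in Ikbkb-/-;P301S+ and 2072 and 2664 CPM in IkbkbCA;P301S+ mice, and no (0) marker passed in any contrast. The sums of the Ikbkb-/-;P301S+ mice lay below those of the Ikbkb+/+;P301S+ mice without overlap, in a contrast where 21.7% of single genes did not overlap either, and within the range of the Ikbkb+/+ mice. Col11a1 had 268, 404, 326 and 308 CPM in the Ikbkb+/+ mice and 295, 325 and 399 CPM in the Ikbkb+/+;P301S+ mice. These ranges of Col11a1 overlapped.

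A gene can change in the members by another amount than in the other excitatory nuclei of the same mice, and that difference was tested with the mouse as a block. It passed for 5 of 15789 genes in the P301S (0.0317%), 10 in the knockout (0.0633%), 1 in the active IKKβ (0.00633%) and 2 in the all-tau contrast (0.0127%). At an unadjusted p under 0.05 it was 4.43%, 5.07%, 4.91% and 4.6% of genes in the same order. The counts were unstable, at 34, 77, 48 and 46 without a filter on low counts and 2, 0, 1 and 0 against depth-matched nuclei, where 1 of the 5 P301S genes and none (0) of the others passed. In the knockout contrast Ntng1 had 148 and 391 CPM in the Ikbkb-/-;P301S+ members and 73.2 to 130 CPM in the Ikbkb+/+;P301S+ members. The difference from the other excitatory nuclei was 1.37 ± 0.25 on the log2 scale. Of the Ntng1 UMIs, 69 of 222 and 171 of 363 lay in 2 nuclei of Ikbkb-/-;P301S+ replicates 1 and 2. In Ikbkb+/+;P301S+ replicates 1, 2 and 3 it was 25 of 39, 43 of 79 and 27 of 108. Cacna1a had 523 and 775 CPM against 285 to 325 CPM (0.79 ± 0.15). These CPM by mouse are scaled to the UMIs of all genes. The CPM of members by mouse given earlier are scaled to the genes that passed the filter, so the 2 differ slightly. Both genes were higher in cluster 2 than in clusters 1 and 3, with Ntng1 at 302 CPM in cluster 2 and 22.1 CPM in cluster 1, and cluster 2 held its highest shares in the same mice. The part of the cluster make-up in these differences was not tested. When only clusters 1 and 3 were summed, none (0) of the 10 genes of the knockout contrast passed and 21 others did, with Ntng1 at 0.30 and Cacna1a at 0.75. Of the 5 genes of the P301S contrast 3 passed there (Plpp3 at 2.49, 9530026P05Rik at 0.87 and Slc1a3 at 2.97). Most UMIs of Plpp3 and Slc1a3 lay in 2 nuclei of each Ikbkb+/+;P301S+ mouse, and none (0) of the 5 genes passed with marked doublets left out, where Plpp3 was at 1.51 and Slc1a3 at 0.88. The gene of the active IKKβ contrast did not pass, and of the 2 in the all-tau contrast 9530026P05Rik did, at 0.71.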

How the data were processed

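Nuclei from the cortex of 11 mice were profiled with 10x 3′ single-nucleus RNA-seq, 1 library a mouse. The deposited values are raw UMI counts per gene and barcode, which the authors made with Cell Ranger 3.1.0 on mm10, counting intronic reads as well. Libraries held 72007219 to 93205362 UMIs. The nuclei kept had 300 to 8000 genes and no more than 5% of UMIs from mitochondrial genes, and were gated as described, and their counts summed per mouse. Members and lists were chosen with earlier results of these data known. Sums were tested with edgeR 4.0.16 (TMM, filterByExpr, quasi-likelihood, Benjamini-Hochberg) in R 4.3.3, genotypes over all 4 groups and members against other excitatory nuclei with the mouse as a block. Named genes were the markers, the called list members, the 15 highest and 10 lowest log2 fold changes called in that comparison at a mean of 50 CPM or more (clone-type names left out), and genes called between genotypes whose groups did not overlap. List members named without a call, and levels by cluster, were chosen after their values were seen. DESeq2 1.42.0 was an alternative. Shares were tested by exact permutation (scipy 1.17.1). Sub-clusters came from leidenalg 0.10.2 at resolution 0.3, on 2000 variable genes and 15 principal components. Doublets were marked by a simulated-doublet score and kept in the main fits. Replicate numbers follow accession order. The titles carry numbers of their own, and mice with the same title number did not deviate together (correlations -0.119 to 0.0956 over 22 pairs). Scripts were tested on simulated data. Some genes of the lists are not reported here.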

Additional observations from a re-analysis of the deposited data

Results flagged for a closer look

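In 1 of 40 groups of 4 mice tested, a single mouse lay far from the others: Thsd7a, a thrombospondin-domain gene that was low in the members, had 57.5 CPM in the members of Ikbkb+/+ replicate 1 and 27.2 to 30.3 CPM in the other 3 mice. Chance alone gives such a gap in about 1 in 20 groups.

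The change between genotypes differed between members and other excitatory nuclei for 18 results in 16 genes (edgeR, adjusted p under 0.05). In the P301S contrast the difference on the log2 scale was 2.78 for Plpp3, 0.98 for 9530026P05Rik, 2.76 for Slc1a3, 0.64 for Zfpm2 and -2.13 for Ankfn1. Slc1a3 is an astrocyte gene, and its UMIs lay in few nuclei: 32 of 39 UMIs in 2 nuclei of Ikbkb+/+;P301S+ replicate 2, and 23 of 32 in 2 nuclei of replicate 3. Plpp3 was similar, with 5 of 5, 16 of 25 and 23 of 40 UMIs in 2 nuclei of replicates 1, 2 and 3 of that group. In the knockout contrast the difference was 1.34 for Inpp4b, 0.73 for Ptprd, 1.37 for Ntng1, 1.47 for Ust, 0.81 for Gpr158, 0.79 for Cacna1a, -0.97 for Sash1, -2.54 for Plpp3 and 0.65 for Lrrc4c. Mtfr1 had a fitted difference of -9.65, against members at 0 UMIs in both Ikbkb-/-;P301S+ mice, which is no bound. In the active IKKβ contrast it was -1.17 for Fam19a1, which had 245 of 354, 117 of 224 and 209 of 431 UMIs in 2 nuclei of the same 3 mice, and in the all-tau contrast 0.79 for 9530026P05Rik and -1.34 for Boc. With marked doublets left out, 0 of the 5 P301S genes passed, with differences of 1.51 for Plpp3, 0.87 for 9530026P05Rik, 0.88 for Slc1a3, 0.50 for Zfpm2 and -1.50 for Ankfn1. Of the 10 knockout genes 1 passed, Inpp4b at 1.34. Pooled levels of Inpp4b were 428 CPM in cluster 2 and 57.2 CPM in cluster 1. With clusters 1 and 3 only, Inpp4b was at 0.26 and did not pass. The part of the cluster make-up in it was not tested. With marked doublets left out, the other knockout genes kept their direction. The positive differences ran from 0.61 for Lrrc4c to 1.62 for Ust, with Sash1 at -0.85 and Plpp3 at -1.15. With clusters 1 and 3 only, Ust was at 0.30, Lrrc4c at 0.37, Sash1 at -0.59 and Plpp3 at -1.54, and none of these passed.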

How the results depend on the processing

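The 25 named genes, which were picked as the extremes, kept their direction and their call in all 425 combinations of gene and setting for members against other excitatory nuclei, with a highest adjusted p of 1.15e-06, and the number called was 2031 against depth-matched nuclei and 3046 to 3297 with 1 mouse left out. The genotype counts were less stable. DESeq2 called 2 genes in the knockout contrast. Without a filter on low counts 24, 67, 48 and 34 genes passed in the P301S, knockout, active IKKβ and all-tau contrasts. With a gate of 3 UMIs 3 genes passed in the P301S, 1 in the knockout and 2 in the all-tau contrast. None (0) passed in the P301S contrast with doublets left out, and none (0) in the P301S and all-tau contrasts with nuclei thinned to 5000 UMIs, with clusters 1 and 3 only, or with cluster 1 only, where Gm43049 fell under the filter. The settings by cluster were chosen after seeing the data. With 1 mouse left out the counts ranged from 0 to 1 (P301S), 0 to 0 (knockout), 0 to 0 (active IKKβ) and 1 to 5 (all-tau, 5 without Ikbkb+/+ replicate 4). In the P301S contrast Gm43049 did not pass without Ikbkb+/+;P301S+ replicate 2 (log2 fold change 7.08, edgeR adjusted p = 0.0555) or replicate 3 (6.76, adjusted p = 0.272), and was at 6.64 with doublets left out. With the breeding line or the age as a covariate the counts were 1, 0, 0 and 1, as without, and Gm43049 was at 7.05 in the P301S contrast with either (adjusted p = 0.0146 and 0.0239). The median Ntng2 of the members of a mouse was 9 to 15.5 UMIs in the floxed line and 16 to 25 in the other. Whether levels in members followed the line was not tested. A replicate block on the numbers in the titles gave 2 genes in the all-tau contrast and changed no other call between genotypes. The title numbers were not taken as pairs. The correlations cannot settle whether they are, since in a group of 2 mice the deviations mirror each other and the pairs crossed breeding lines.

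Genes whose change differed from that in other excitatory nuclei numbered 34, 77, 48 and 46 without a filter. Against depth-matched nuclei they numbered 2 (1 shared), 0, 1 and 0, while in the P301S contrast Plpp3 was at 2.71 (edgeR adjusted p = 0.422) and 9530026P05Rik at 1.26 (adjusted p = 0.699), and with doublets left out 0, 2, 0 and 0, and in clusters 1 and 3 only 24, 21, 14 and 12. The share difference in the P301S contrast was -0.00715 points after thinning, -0.175 over all nuclei and -0.0940 with a gate of 3 UMIs, and in the knockout contrast 0.186 over all nuclei. With 1 mouse left out it ranged from -0.804 to 1.26 (P301S), -1.51 to 0.701 (knockout), 0.377 to 2.44 (active IKKβ) and 0.223 to 1.10 (all-tau). The knockout share turned positive without Ikbkb+/+;P301S+ replicate 3 (0.701) and without Ikbkb-/-;P301S+ replicate 2 (0.510). The causes were not tested. Groups of 2 mice and sums of 39 to 129 nuclei limit what these tests can call.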
